A study of Mus musculus with 4 samples.

Results

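The genes described here are the NF-kB and NFAT transcription factors of T-helper 2 cells: Nfkb1, Nfkb2, Rel, Rela and Relb, the NF-kB inhibitor gene Nfkbia, and Nfatc1, Nfatc2 and Nfatc3. They were chosen by name, and their rows were found for 9 of 9 symbols among the 50600 genes of the tables. RNA was sequenced from primary T-helper 2 cells of C57BL/6NJ mice, the helper subset known for interleukin-4, and the labels link a protocol for the differentiation of CD4+ T cells. There were 4 libraries, replicates 1 to 4 of a single group, without a control, a treatment or another cell type. The sex was not collected and the age is unknown in the labels. All 4 libraries carry the same donor record, and the labels do not say that they are of separate mice. The spread that the p-values rest on is that between these samples alone and may be technical.

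NF-kB proteins form dimers that are held in the cytoplasm by inhibitors of the IkB family until a signal, in T cells from the antigen receptor and costimulation, frees them to enter the nucleus. The canonical arm uses the products of Nfkb1, Rela and Rel, and the noncanonical arm uses those of Nfkb2 and Relb. NFAT proteins are freed by another route: a rise in calcium activates the phosphatase calcineurin, which removes phosphates from NFAT and lets it enter the nucleus, where it acts on cytokine genes such as Il2 and Il4. Both families act through proteins already made, so the RNA level of a factor is no measure of its activity.

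Nfkb2, Nfkbia and Rel are themselves known targets of NF-kB, so the bases before their starts are shown. The NF-kB consensus and the NFAT core GGAAA were searched for on both strands in windows from 250 bases before to 50 bases after each annotated start in RefSeq (GRCm38.p6). Windows were found for 6 of the genes, 10 windows in all, while none was found for Nfkb1 and Relb, and Nfatc1 was not searched. The NF-kB consensus occurred in 5 of the 10 windows, which belong to Nfkb2, Rel and Nfkbia, and in 2779 of 32851 promoter windows of all genes, or 8.46%. The second and the third window of Nfkb2 overlap and hold 1 match in common, GGGACTTTCC, so the windows are not independent. The NFAT core occurred in 8 of the 10 windows and in 61.3% of all windows, and in each of the 5 windows with the consensus 1 NFAT core overlaps it. Below are the 250 bases before the start, written 5′ to 3′ along the gene, with capitals for the bases covered by a consensus match. For Nfkb2 only the first window is shown, and its bases lie at chr19:46304487-46304736 (plus strand). For Nfkbia they lie at chr12:55492648-55492897 (minus strand) and for Rel at chr11:23770970-23771219 (minus strand).
Nfkb2: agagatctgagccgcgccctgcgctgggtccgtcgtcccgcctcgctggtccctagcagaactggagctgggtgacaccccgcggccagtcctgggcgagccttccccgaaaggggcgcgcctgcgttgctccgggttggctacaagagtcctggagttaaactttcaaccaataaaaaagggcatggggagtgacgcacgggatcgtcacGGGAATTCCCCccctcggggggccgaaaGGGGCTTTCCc
Nfkbia: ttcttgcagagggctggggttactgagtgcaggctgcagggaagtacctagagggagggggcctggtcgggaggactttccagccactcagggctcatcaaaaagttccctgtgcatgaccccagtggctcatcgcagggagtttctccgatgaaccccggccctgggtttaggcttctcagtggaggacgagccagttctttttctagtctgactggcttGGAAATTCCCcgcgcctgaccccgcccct
Rel: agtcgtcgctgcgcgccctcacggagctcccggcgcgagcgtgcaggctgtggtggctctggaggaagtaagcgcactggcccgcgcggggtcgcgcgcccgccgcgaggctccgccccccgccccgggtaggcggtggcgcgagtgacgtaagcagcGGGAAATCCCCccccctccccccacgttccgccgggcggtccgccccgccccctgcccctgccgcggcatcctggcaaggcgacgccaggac
In the first window of Nfkb2, 28 bases lie between GGGAATTCCCC and the annotated start, and 1 base lies between GGGGCTTTCC and that start. In Nfkbia, 19 bases lie between the start and GGAAATTCCC, whose other strand holds the consensus. In Rel, 81 bases lie between GGGAAATCCCC and the start. A match is a description of letters and not a measured binding site.

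The libraries held 1804217 to 2711948 counts, in which 3 counts, taken as the upper limit behind a count of 0, were 1.11 to 1.66 CPM (counts scaled to the library total). Genes that share any exon base with a gene on the other strand held 92.2 to 95.9% of the counts of each library. A count is therefore given as the count on the strand that the counting selected. Whether that strand is the strand of the transcripts could not be settled from the labels, so a low count does not show that a gene was not expressed, and a high count may be of the gene opposite. This holds for every level below. Levels are in TPM, the count per exon length scaled to the library. At the median exon length of genes with a count, 1 TPM was 3.82 to 5.15 counts. In bulk RNA, fewer cells of a type and less RNA per cell cannot be told apart.

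Of the NF-kB subunits, Nfkb2 had the highest level on the counted strand and was called above 1 TPM, and Nfkb1, Rel, Rela and Relb were not called. Nfkb2 is also the only subunit that overlaps genes on the other strand, Psd and AC114539.1, and the part of those genes in its level was not tested. Nfkb2 (chromosome 19: 46304737 to 46312090, plus strand) encodes p100, the precursor of p52 in the noncanonical arm. It had 90, 92, 90 and 88 counts in replicates 1 to 4, or 22.2, 22.2, 16.5 and 17.99 TPM. The 4 counts lay within 4 of each other, and on the TPM scale replicates 3 and 4 were below replicates 1 and 2. The mean was 19.7 ± 2.93 TPM (SD, n = 4), 4.16 ± 0.11 (SE) above 1 TPM on the log2(TPM + 0.1) scale, with an adjusted p of 4.7e-08 in limma.

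Nfkb1, on chromosome 3 (135584655 to 135691547, minus strand), encodes p105, the precursor of p50. It had 48, 72 and 59 counts in replicates 1 to 3 and 10 in replicate 4, or 3.23, 4.73, 2.95 and 0.558 TPM. Replicate 4 stood well below the other replicates, which were all above 1 TPM. The mean was 2.87 ± 1.73 TPM, with a log2 level of 1.12 ± 0.64 (SE) and a limma adjusted p of 0.085. Without replicate 4, Nfkb1 was called above 1 TPM, with a log2 level of 1.74 and a limma adjusted p of 3.8e-04.

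Rel, on chromosome 11 (23736847 to 23770970, minus strand), encodes c-Rel, a subunit known for its role in lymphocytes. It had 16, 15 and 21 counts in replicates 1 to 3 and 3 in replicate 4, or 1.74, 1.59, 1.70 and 0.270 TPM. The first 3 libraries were close to each other and replicate 4 was far below them, so that the mean was 1.32 ± 0.706 TPM (limma adjusted p = 0.847). Rela, on chromosome 19 (5637483 to 5648130, plus strand), encodes p65, the main transactivating subunit of the canonical arm. It had 5, 7, 11 and 2 counts, or 1.495, 2.04, 2.44 and 0.495 TPM, with a mean of 1.62 ± 0.843 TPM (limma adjusted p = 0.419). Replicate 4 was again the lowest library, and without it Rela was called above 1 TPM with a log2 level of 0.90 and a limma adjusted p of 0.033.

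Relb, the partner of p52 in the noncanonical arm, had the lowest mean level of the 9 genes. On chromosome 7 (19606217 to 19629438, minus strand), it had 3, 2, 4 and 2 counts, or 0.627, 0.408, 0.620 and 0.346 TPM. All 4 libraries were below 1 TPM, at counts too few to order them. The mean was 0.5 ± 0.145 TPM, and Relb was not called below 1 TPM (log2 level -0.91 ± 0.18 SE, limma adjusted p = 0.161).

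Nfkbia, which encodes IkB-alpha, the inhibitor that NF-kB itself induces, was the only other gene of the 9 called above 1 TPM. On chromosome 12 (55489410 to 55492647, minus strand), it had 19, 31, 31 and 16 counts, or 9.58, 15.3, 11.6 and 6.68 TPM. Replicate 2 was the highest and replicate 4 the lowest, and every library was above 6 TPM. The mean was 10.8 ± 3.61 TPM, with a log2 level of 3.24 ± 0.25 (SE) and a limma adjusted p of 4.4e-06.

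None of the NFAT genes was called above or below 1 TPM. Nfatc1 encodes NFAT2, also known as NFATc1, a factor whose short isoform is induced in activated T cells. On chromosome 18 (80606205 to 80713071, minus strand), it had 13, 21, 21 and 13 counts, or 1.42, 2.24, 1.70 and 1.18 TPM. All 4 libraries lay above 1 TPM within a narrow range, with a mean of 1.64 ± 0.457 TPM, a log2 level of 0.62 ± 0.19 (SE) and a limma adjusted p of 0.185.

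Nfatc2, which encodes NFAT1, the NFAT protein present in resting T cells, lies on chromosome 2 (168476410 to 168601657, minus strand). It had 11, 10, 12 and 5 counts, or 0.844, 0.750, 0.684 and 0.318 TPM, with a mean of 0.649 ± 0.230 TPM (limma adjusted p = 0.308). All 4 libraries lay below 1 TPM, and replicate 4 was the lowest. Nfatc3, which encodes NFAT4, a family member of thymocytes and T cells, lies on chromosome 8 (106058840 to 106130537, plus strand). It had 20, 24 and 16 counts in replicates 1 to 3 and 0 in replicate 4, or 1.39, 1.62, 0.822 and 0 TPM. The count of 0 allows up to 3 counts, or 0.172 TPM, which is below the level of each other library. The mean was 0.957 ± 0.721 TPM (limma adjusted p = 0.463).

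**Figure D1:**
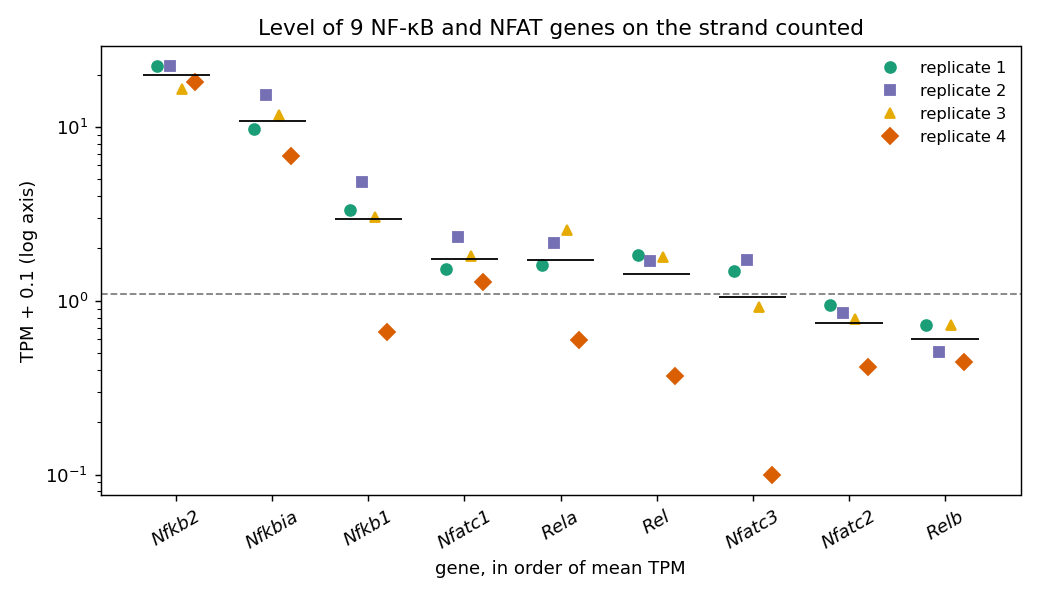
Level of each gene in each of the 4 libraries, as TPM + 0.1 on a log axis, with genes in order of mean TPM. Each point is 1 library, the short bar is the mean of 4, and the dashed line is 1 TPM. Nfkb2 at 16.5 to 22.2 TPM and Nfkbia at 6.68 to 15.3 TPM stand above the rest, and the diamonds of replicate 4 lie lowest for each gene but Nfkb2.

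In all, 2 of the 9 genes passed the test above 1 TPM and 0 passed it below, and each of the 9 was tested. Over the whole tables, 5523 of 17203 tested genes were called above, or 32.1%, and 4571 below, or 26.6%, so the share of these genes called above was near the background. Among the 11233 tested genes with no exon base shared with the other strand, 18.7% were called above, and Nfkbia was the only one of the 7 such genes among the 9. The median level of the 9 was 1.62 TPM, beside 1.14 TPM over all genes tested. edgeR's quasi-likelihood F and the DESeq2 Wald test each called 3 of the 9 above, with Nfkb1 as the third. Without replicate 4, limma called 4 above, with Nfkb1 and Rela added.

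Ordered by mean TPM, the genes ran Nfkb2, Nfkbia, Nfkb1, Nfatc1, Rela, Rel, Nfatc3, Nfatc2 and Relb. Nfkb2 was above Nfkbia in 4 of 4 libraries, by 0.91 ± 0.46 on the log2(TPM + 0.1) scale (SD, n = 4), with no overlap of their ranges. Nfkbia was above Nfkb1 in 4 of 4 libraries, by 2.13 ± 0.84, also with no overlap. For each of these pairs, p was 0.13 by the two-sided exact permutation test that flips signs of the differences, the smallest that 4 libraries allow, and 0.4 after adjustment over the 8 neighbour pairs. The ranges of the other 6 neighbour pairs, from Nfkb1 and Nfatc1 down to Nfatc2 and Relb, overlapped, and their order is not read. For Nfatc3 over Nfatc2, the order of the means and the mean log2 difference of -0.04 ± 1.39 went opposite ways. Pairs with 1 direction in every library numbered 4 without replicate 2 and 5 without replicate 4.

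Summed, the 9 genes had 225, 274 and 265 counts in replicates 1 to 3 and 139 in replicate 4. The sums were 125, 148, 97.7 and 64.1 CPM. Nfkb2 held 63.3% of them in replicate 4 (95% exact Clopper-Pearson interval 54.7 to 71.3%), against 40.0% (33.6 to 46.7%), 33.6% (28.0 to 39.5%) and 34.0% (28.3 to 40.0%) in replicates 1 to 3. Its share was thus highest in replicate 4, with no overlap of the intervals. The NF-kB subunits together had 162, 188, 185 and 105 counts, and the NFAT genes had 44, 55, 49 and 18.

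Replicate 4 was lower than the other replicates for most of the genes, and Nfkb2 was the clearest exception. Nfkb1 had a ratio of CPM in replicate 4 to the pooled CPM of replicates 1 to 3 of 0.164 (95% exact conditional binomial interval 0.0772 to 0.308). Rel had a ratio of 0.169 (0.0338 to 0.523), and Nfatc3, at 0 counts, had an upper limit of 0.186. For these 3 genes the interval lay well below 1.

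The ratio of Nfkbia was 0.579 (0.316 to 0.998), whose upper limit was at the edge of 1. Nfatc2 had 0.444 (0.135 to 1.15) and Rela had 0.255 (0.0291 to 1.03), both with intervals that reach past 1. Nfatc1 had 0.693 (0.347 to 1.29) and Relb had 0.652 (0.0685 to 3.15). At these counts a lower level in replicate 4 was not detectable for Nfatc1, Nfatc2, Rela and Relb. Nfkb2 had 0.949 (0.737 to 1.21), so its interval holds no drop of the size seen in Nfkb1, Rel or Nfatc3. The intervals cover counting error only.

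**Figure D2:**
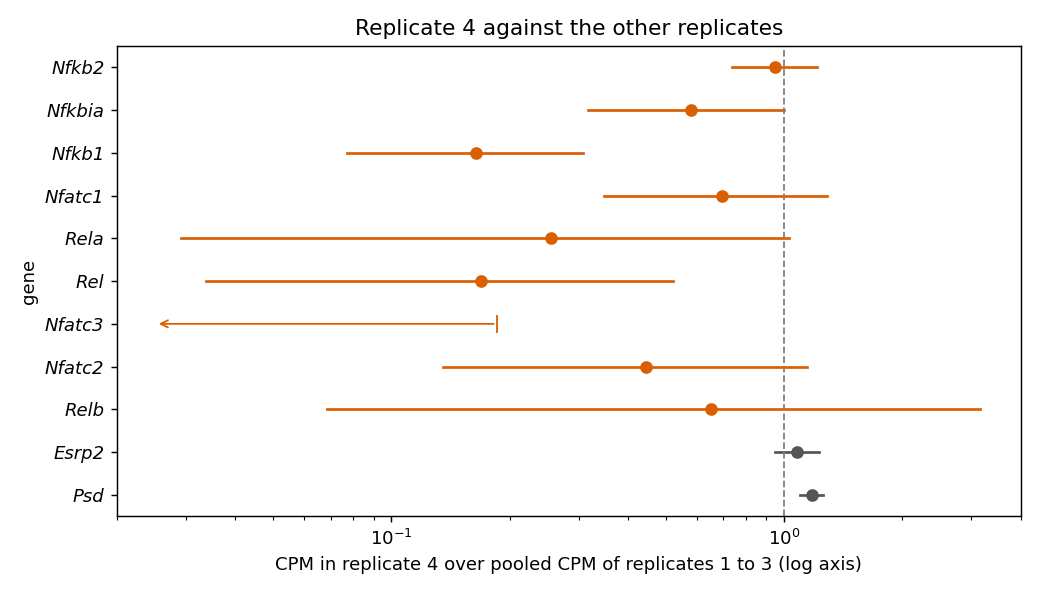
Ratio of CPM in replicate 4 to the pooled CPM of replicates 1 to 3, on a log axis, for the 9 genes and for Esrp2 and Psd, the neighbours on the other strand of Nfatc3 and Nfkb2. Points are ratios and lines are 95% exact conditional binomial intervals, and the arrow marks the upper limit of 0.186 for Nfatc3, which had 0 counts. Nfkb1 at 0.164 and Rel at 0.169 lie far left of 1, and Nfkb2 at 0.949 lies beside it.

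The median deviation of the 9 genes in replicate 4 was -1.12 in log2 CPM, and it was also -1.12 over the 7 of them that had 10 counts or more in each of replicates 1 to 3. Over all genes with such counts the median was -0.20, and over those with no shared exon base it was -1.24. Of the 7 genes, 4 were more than 1 lower in replicate 4, Nfkb1, Rel, Nfatc2 and Nfatc3. The same held for 28.0% of the 5463 genes with such counts, and for 55.9% of the 2115 of them with no shared exon base. This filter uses the other libraries alone, so the count is read only against those shares. Of the 5 of the 7 with no shared exon base, 3 were more than 1 lower, Nfkb1, Rel and Nfatc2, a share near that of 55.9%. TMM scaling raised the value of replicate 4 by 0.22 and DESeq2 size factors raised it by 0.33 for all genes, which put Nfkb2 at 0.12 and 0.23 and left 3 of the 7 genes more than 1 lower. The T cell and Th2 markers together were also lowest in replicate 4, at 36.0 CPM against 73.8 to 115 CPM in replicates 1 to 3, although Il4 among them was not low there, and their part in the difference was not tested.

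Spread between replicates was set against its trend with edgeR, and 0 of 4190 genes were called, or 0.0%, with 268 at an unadjusted p under 0.05. Of the 9 genes, 3 passed the expression filter, Nfkb2, Nfkbia and Nfatc1, and their unadjusted p were 0.986, 0.332 and 0.449, with adjusted p of 0.999, 0.987 and 0.987. None was called, nor under the DESeq2 dispersion outliers. Nfkb1, Rel and Nfatc3, which had the lowest ratios in replicate 4, did not pass that filter. It asked for a minimum CPM in each of the 4 libraries, so a drop in replicate 4 could itself remove a gene. Nfkb1, for example, was at 4.61 CPM in replicate 4. The count of 0 called thus cannot speak for genes removed in this way. With no filter beyond a count above 0, 0 of the 9 were called as well.

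The other strand was examined because most counts of these libraries lie in genes that overlap another gene there. In the tables, 7 of the 9 genes shared no exon base with a gene on the other strand, and 7552 of all genes, or 14.9%, shared at least 50. Nfatc3 was the only one of the 9 that shared at least 50 bases. Its last 219 exon bases, 1.87% of its exon length, are shared with Esrp2, which encodes an epithelial splicing regulator, and are 5.05% of the Esrp2 exon length. They lie at chromosome 8, 106130319 to 106130537, and are 3′ UTR in both genes in GENCODE M21.

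Nfatc3 had 20, 24, 16 and 0 counts in replicates 1 to 4, against 307, 295, 278 and 324 counts for Esrp2. The Esrp2 counts exceeded those of Nfatc3 by 12.3-fold or more in each of replicates 1 to 3, and in CPM replicate 4 was the lowest library for Nfatc3 and lay between the others for Esrp2. Esrp2 averaged 50.03 ± 8.17 TPM and was called above 1 TPM, with a limma adjusted p of 2.1e-09. Nfatc3 minus Esrp2 was -5.23 ± 2.75 in log2 CPM (SD, n = 4), below 0 in 4 of 4 libraries, with p = 0.13 in the two-sided exact permutation test of signs, the smallest it can give. On the log2(TPM + 0.1) scale the difference was -6.15 ± 1.89. In replicate 4 the ratio of CPM to the pooled other replicates was at most 0.186 for Nfatc3, against 1.08 (0.948 to 1.23) for Esrp2.

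Nfkb2 shares 4 exon bases with Psd, a gene for a guanine nucleotide exchange factor of Arf proteins, in the tables. Nfkb2 had 90, 92, 90 and 88 counts, against 1004, 997, 988 and 1198 for Psd. Nfkb2 minus Psd was -3.53 ± 0.16 in log2 CPM (SD, n = 4), below 0 in 4 of 4 libraries (exact sign-flip permutation p = 0.13, two-sided). In GENCODE M21, on the same build, the last exon of Nfkb2 runs on to 46312385, and 299 of its bases, all 3′ UTR in both genes, are shared with Psd. The M21 gene also starts at 46304320 and shares 531 bases of its 5′ end with AC114539.1, a long noncoding RNA of the bidirectional promoter class that is not among the genes counted here. The 7 genes other than Nfkb2 and Nfatc3 shared no base with the other strand in M21, and the overlap of Nfatc3 was the same 219 bases.

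**Figure D3:**
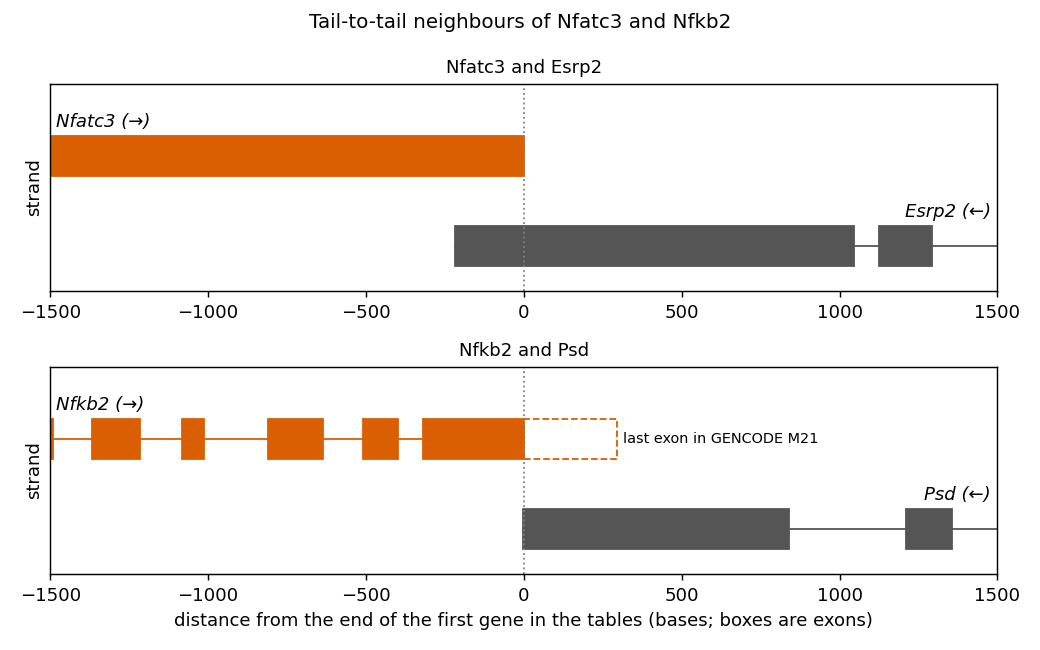
Exons of Nfatc3 and Esrp2, above, and of Nfkb2 and Psd, below, by distance in bases from the end of the first gene in the tables; boxes are exons, thin lines are introns, and arrows give the strand. Esrp2 reaches 219 bases into Nfatc3, Psd reaches 4 bases into Nfkb2, and the dashed box is the longer last exon of Nfkb2 in GENCODE M21, which shares 299 bases with Psd.

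The genes whose pattern over the 4 libraries was most like that of Nfkb2 were Pfkfb2, Gm26602 and 1700018A23Rik, at Euclidean distances of 0.0137, 0.0206 and 0.0256 in centred log2 CPM. Pfkfb2 had 183, 187, 181 and 179 counts. These 3 genes share 154, 284 and 67 exon bases with genes on the other strand. The closest to Nfkb1 were Tubb5, Atp5b and Kpnb1, at distances of 0.0719, 0.0816 and 0.0929, which encode a beta-tubulin, an ATP synthase subunit and an importin. Tubb5 had 216, 324, 250 and 45 counts, with replicate 4 the lowest as in Nfkb1, and like Atp5b shares no exon base with the other strand, while Kpnb1 shares 466. The likeness rests on 4 libraries alone.

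Among 20 further regulators of NF-kB, 5 were called above 1 TPM, 0 below, 14 were not called and 1 had no count. The median level was 1.06 TPM, beside 1.14 TPM over all genes tested and the 32.1% called above. Ikbkg, which encodes NEMO, the regulatory subunit of the IkB kinase, had 531, 502, 580 and 543 counts, or 47.6 ± 4.48 TPM. It shares 418 exon bases with G6pdx on the other strand, which had 48, 36, 47 and 39 counts. Nfkbib, which encodes IkB-beta, had 22, 27, 17 and 22 counts, or 7.41 ± 2.18 TPM, and shares 314 bases with Ccer2. Both had about the same count in replicate 4 as in the other libraries. The number of regulators called above was 2 without replicate 1 or replicate 2, and 3 without replicate 3.

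Otulin, a deubiquitinase that cuts linear ubiquitin chains, had 6, 12 and 2 counts in replicates 1 to 3 and 31 in replicate 4, or 6.11 ± 5.72 TPM (limma adjusted p = 0.027). It was the only NF-kB regulator more than 1 higher in log2 CPM in replicate 4, at a ratio of 4.55 (95% exact conditional binomial interval 2.51 to 8.41). Malt1, a protease that relays antigen receptor signals to NF-kB, had 34, 41, 27 and 6 counts, or 3.96 ± 2.50 TPM (limma adjusted p = 0.025). Nfkbid, which encodes an atypical nuclear IkB protein, was the fifth, at 3.16 ± 1.87 TPM (limma adjusted p = 0.035). The kinase genes Ikbkb, with 11, 13, 16 and 4 counts, and Chuk, with 5, 9, 8 and 0, were not called. Bcl3, which encodes a further nuclear IkB protein, had 0 counts in each library, and Gm16175 on its other strand had 41, 42, 19 and 44.

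Among 22 genes that act on or with NFAT, 5 were called above 1 TPM, 1 below, 14 were not called and 2 had no count, beside 32.1% called above and 26.6% below over all genes tested. The median level was 0.900 TPM, beside 1.14 TPM. Homer3, which encodes a scaffold protein that binds NFAT, had 1593, 1723, 1737 and 1853 counts, or 360 ± 39.8 TPM. It shares 874 exon bases with the helicase gene Ddx49 on the other strand, which had 210, 212, 188 and 216. Neither was low in replicate 4, and whether the counts of Homer3 are its own was not tested. The number called above was 3 without replicate 1, replicate 2 or replicate 3.

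Calm2 and Calm3, which encode calmodulin, the carrier of the calcium signal to calcineurin, were called above. Calm2 had 33, 53, 56 and 10 counts, or 18.6 ± 10.3 TPM. Calm3 had 21, 26, 32 and 3 counts, or 6.08 ± 3.55 TPM. Both encode the same protein, and reads that could come from either make their split uncertain. Both were lowest in replicate 4.

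Of calcineurin itself, the regulatory subunit gene Ppp3r1 was called above, at 3.34 ± 1.78 TPM (limma adjusted p = 0.027). The catalytic subunit gene Ppp3ca was called below, with 2, 1, 3 and 2 counts, or 0.140 ± 0.0444 TPM (limma adjusted p = 0.010). Its paralogs Ppp3cb, at 0.898 ± 0.452 TPM, and Ppp3cc, at 1.90 ± 1.32 TPM, were not called. The calcium entry genes Stim1, at 0.402 ± 0.290 TPM, and Orai1, at 1.32 ± 0.567 TPM, were not called, and Nfatc4, a further calcium-regulated family member, had 0 counts. These genes sit at few counts, so their order is not read.

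Among 20 genes known as targets of NF-kB or NFAT in T cells, 10 were called above 1 TPM, 3 below and 7 were not called, beside 32.1% above and 26.6% below over all genes tested. The median level was 3.42 TPM, beside 1.14 TPM. Of the 18 targets with no exon base shared with the other strand, 9 were called above, beside 18.7% of all such genes. Il2, the T cell growth factor, had 42, 35, 28 and 4 counts, or 17.8 ± 12.0 TPM. Irf4, a transcription factor induced by the antigen receptor, had 115, 143, 114 and 36, or 15.9 ± 8.15 TPM. Both were lowest in replicate 4.

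Il4, the cytokine that defines these cells, had 24, 21, 25 and 26 counts, or 14.0 ± 1.5 TPM, with replicate 4 among the other libraries. Cd40lg, which encodes the ligand for B cell help, had 18, 32, 24 and 7, or 11.8 ± 6.75 TPM. Myc, a growth regulator, had 42, 42 and 41 counts in replicates 1 to 3 and 1 in replicate 4, or 8.54 ± 5.74 TPM, and was not called (limma adjusted p = 0.093). Il13, Ifng and Icam1 were called below 1 TPM, and Icam1 had 1, 3, 2 and 0 counts, where Gm47079 on its other strand had 259, 265, 340 and 242.

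**Figure D4:**
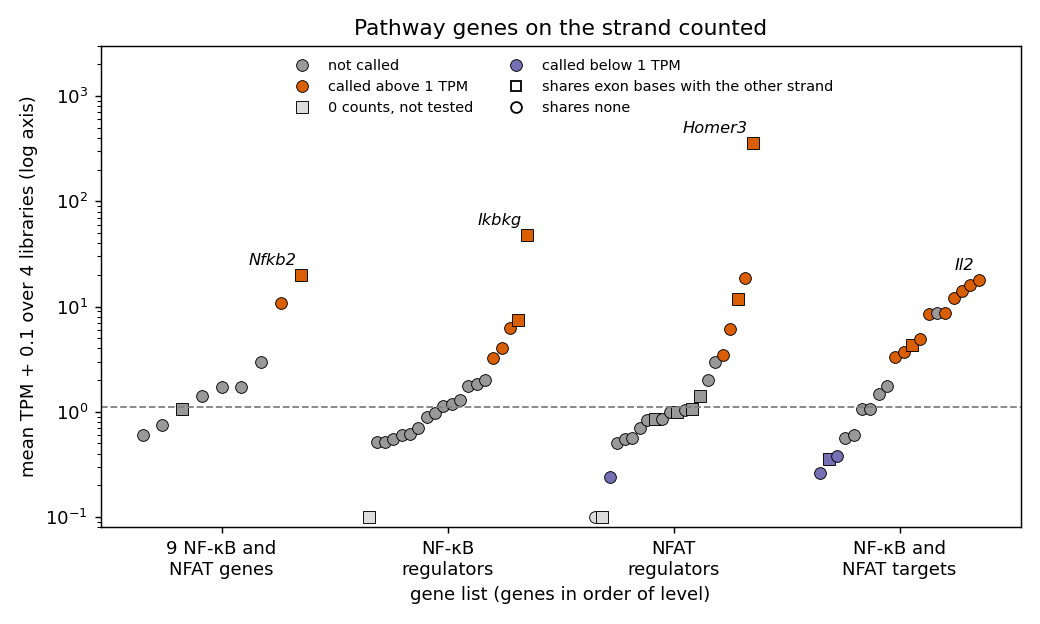
Mean level over 4 libraries, as TPM + 0.1 on a log axis, of the 9 NF-kB and NFAT genes, 20 NF-kB regulators, 22 NFAT regulators and 20 targets. Each point is 1 gene, colour gives the limma call against 1 TPM, and squares share exon bases with the other strand. Homer3 at 360 TPM and Ikbkg at 47.6 TPM, both squares whose counts may be of the gene opposite, lie highest, and 10 of the 20 targets were called above 1 TPM.

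In replicate 4 the lists deviated in the same direction as the 9 genes. With the same filter on replicates 1 to 3, 5 of 9 NF-kB regulators, 6 of 8 NFAT regulators and 8 of 10 targets were more than 1 lower in replicate 4 in log2 CPM, beside 28.0% of all such genes. Counted over genes with no shared exon base alone, these were 5 of 7, 5 of 5 and 7 of 9, beside 55.9% of all genes of that kind.

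The labelled cell type was checked by its markers. Cd4 had 56, 67, 71 and 20 counts, or 9.60 ± 4.32 TPM, and Gata3, the Th2 lineage factor, had 20, 47, 44 and 22, or 5.96 ± 2.62 TPM. Of the 6 T cell and Th2 markers, 4 were called above 1 TPM, and their sum was 83.7, 115 and 73.8 CPM in replicates 1 to 3 and 36.0 CPM in replicate 4. On the other strand, Gm13256, which overlaps 155 exon bases of Gata3, had 1364, 1638, 1747 and 2006 counts. Cd3e, with 16, 17, 14 and 4 counts, and Cd28, with 19, 45, 32 and 1, were not called. Il13, a Th2 cytokine that is not among the 6, had 0, 1, 0 and 0 counts and was called below 1 TPM. Gm48719, which overlaps 135 exon bases of Cd3e, had 2549, 2746, 2735 and 2857 counts. The part of these genes in the levels of Gata3 and Cd3e was not tested.

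Of the B cell markers, Cd79a was called above, at 5.92 ± 1.52 TPM, and Ms4a1 and Pax5 had 0 counts in each library. Of the myeloid markers, Csf1r, which shares 871 exon bases with Hmgxb3, and Cd68 were called above, and Lyz2 and Itgam were at 0. Csf1r had 1026, 993, 1006 and 983 counts, against 7, 4, 8 and 3 for Hmgxb3. Among the other cell types, Cd8a and the NK cell markers Ncr1, Klrb1c and Klrd1 were at 0, Cd8b1 had 4, 3, 3 and 3 counts and was not called, and 0 of 3 dendritic cell markers were called above. The summed B cell markers lay between 4.43 and 8.12 CPM, the myeloid ones between 374 and 576 CPM, the dendritic ones between 1.38 and 7.58 CPM and the CD8 ones between 1.11 and 2.22 CPM. Csf1r alone lay between 371 and 569 CPM, so nearly all of the myeloid sum was that gene. Whether the counts of Csf1r are its own was not tested. Replicate 4 was at neither end of the B cell and myeloid sums.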

How the data were processed

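RNA-seq gene tables of 4 libraries of T-helper 2 cells were used, with groups and replicate numbers from the labels. Per the file headers, featureCounts 1.4.6-p4 had been run by the authors over exons of GENCODE M13, for fragments with both ends aligned and with strand setting 1. The tables hold unnormalized counts as deposited, beside exon coordinates and exon length. The file headers call the alignments star2 and give no aligner version. Per the labels, the assembly is mm10 and the assay total RNA-seq, although the protocol they link names poly(A) RNA. A time of 24 hours stands in the header paths and not in the labels.

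The genes and lists were chosen with earlier results of these data known. Symbols were matched by gene ID for 50376 of 50600 genes. Exon bases shared with genes on the other strand were summed from the deposited coordinates, and the annotation was set beside GENCODE M21. TPM and CPM were computed from the counts. Levels were tested against 1 TPM on log2(TPM + 0.1) with limma 3.58.1, a moderated one-sample test with trended robust variance, two-sided, over the 17203 genes with a count. Spread was tested with edgeR 4.0.16, an intercept-only quasi-likelihood fit with TMM factors, upper tail of the quasi-dispersion against its trend, over 4190 genes. Both used Benjamini-Hochberg adjustment at 0.05 and were tested on simulated data. Deviations are log2 CPM with a prior count of 0.5. Exact sign-flip permutation tests and exact conditional binomial intervals used scipy 1.17.1. Alternatives were other pseudocounts, levels, filters, scalings, DESeq2 1.42.0, edgeR's quasi-likelihood F and each replicate left out. The 2 choices of genes for the deviation in replicate 4 were added once the data had been seen. Named genes were the 9, their other-strand neighbours, the 4 genes highest in mean TPM of each list, markers, other-strand genes of these (some of them not reported here), and the 3 genes nearest in pattern to Nfkb2 and to Nfkb1. Chosen after their values were seen were Psd, Nfkbid, Ikbkb, Chuk, Bcl3, Gm16175, Ppp3r1, Ppp3ca, Ppp3cb, Ppp3cc, Stim1, Orai1, Nfatc4, Myc, Il13, Ifng, Icam1 and Gm47079. Depth was 1804217 to 2711948 counts per library. R 4.3.3 and Python 3.11.15 were used.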

Additional observations from a re-analysis of the deposited data

Results flagged for a closer look

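In 3 of 23 genes examined, 1 library lay far from the other 3, by the gap to its nearest neighbour over the whole range in log2 CPM, set against Dixon's 95% critical value. For independent groups, chance gives this in about 1 in 20. The 23 genes share the same libraries and are not independent, so the 3 are not read against that rate. In Rel, replicate 4 was the low library, with 3 counts against 15 to 21 and a gap of 0.918 of the range. In Calm3, replicate 4 was also the low library, with 3 counts against 21 to 32 and a gap of 0.915. In Psd, replicate 3 was the low library, at 364 CPM against 540 to 557 CPM, with a gap of 0.929. Its counts were 1004, 997, 988 and 1198, and replicate 3 had the largest library total, 2711948. Nfkb2 and Esrp2 were also lowest in CPM in replicate 3, while the other NF-kB and NFAT genes described were lowest in replicate 4. The cause was not tested.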

How the results depend on the processing

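At a level of 0.5 TPM, 5 of the 9 genes were called above it in place of 2, and 8 NFAT regulators in place of 5. At 2 TPM, 2 NF-kB regulators were called above in place of 5, 3 NFAT regulators in place of 5, and 6 targets in place of 10. With each replicate left out in turn, the calls above ran from 2 to 4 for the 9 genes, from 2 to 7 for NF-kB regulators and from 3 to 6 for NFAT regulators. The highest of each came without replicate 4. Neighbours in order with 1 direction in every library numbered 2 to 5 of 8 with a replicate left out, 5 without replicate 4. With at least 1 shared exon base, 2 genes in place of 1 were below their other-strand neighbour in every library. The median deviation of the 9 genes in replicate 4 was -0.79 with DESeq2 size factors, beside -1.12.

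Log2 levels changed sign, without a call, at 2 TPM for Rel (-0.81), Rela (-0.48) and Nfatc1 (-0.31), and at 0.5 TPM for Nfatc2 (0.25) and Nfatc3 (0.22). With a replicate left out, Rel ran from -0.081 to 0.69 and Nfatc3 from -1.09 to 0.28, each highest without replicate 4. Nfkb1 was called above in edgeR's quasi-likelihood F and the DESeq2 Wald test, with adjusted p of 6.4e-12 and 2.5e-04, and without replicate 4, where Rela was called too. Nfkb1, Rela and Nfatc1 were called above 0.5 TPM, and Relb and Nfatc2 below 2 TPM. The cause was not tested. Every other result under the alternatives run kept its direction and its side of the threshold, or stayed within 1.5 times for a count. Counts of 0 to 24 per library limit what Relb, Rela, Rel and the NFAT genes can show. No paired analysis was possible because there is 1 group.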
